A study of Mus musculus with 6 samples.

Results

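The genes described are the nuclear genes for the 5 complexes of oxidative phosphorylation, measured in naive CD8 T cells of LAIR-1-deficient and wild type mice. They were chosen by symbol: every row off the mitochondrial chromosome beginning with Ndufa, Ndufb, Ndufc, Ndufs, Ndufv, Uqcr or Atp5, or with Cox and a number of 4 to 8, plus Cyc1 and the Sdh subunit genes, and leaving out the Ndufaf assembly factors. The rule took 81 of the 14515 genes in the count table: 36 for complex I, 4 for complex II, 9 for complex III, 15 for complex IV and 17 for complex V. Of these, 78 encode annotated subunits and 3, Cox7a2l, Atp5s and Atp5sl, carry a related name but encode other proteins. Ndufa4, named for complex I, was counted with complex IV, where its protein is now placed.

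LAIR-1 is an inhibitory receptor of immune cells that binds collagen. The mice were Lair1-/- animals, 3 of them, and Lair1+/+ animals, also 3, with 1 library per mouse and no treatment of either group. From each spleen 100000 cells were sorted on a gate that included CD45, CD3 and CD8 and the absence of CD44, and total RNA was sequenced. Each of the 6 libraries was a separate mouse. The spread within a group thus holds differences between animals and those from sorting, library preparation and counting, which cannot be separated.

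Oxidative phosphorylation makes ATP at the inner mitochondrial membrane. Complexes I and II pass electrons from NADH and succinate to ubiquinone, complex III passes them to cytochrome c, and complex IV passes them to oxygen. Complexes I, III and IV pump protons, and complex V, the ATP synthase, lets them flow back to make ATP. Most subunits are encoded in the nucleus, a few on mitochondrial DNA, and complex II is wholly nuclear. Resting naive T cells rely on oxidative phosphorylation for much of their ATP.

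NRF1, ETS-family factors such as GABP, and YY1 are known to bind promoters of many of these genes. RefSeq promoter sequences of GRCm38.p6, from 250 bases before to 50 bases after the gene start, were found for 68 of the 81 genes. They were searched on both strands for GCGCA followed by any base and GCGC (NRF1), CCGGAAG (ETS) and AANATGGCG (YY1), with N for any base. None of the motifs contains another, and matches of different motifs could overlap. NRF1 letters were present in 17 of the 68 promoters (25%), against 10.6% of the 11404 promoters of genes in the count table. ETS letters were present in 16 (23.5%, against 18.4%) and YY1 letters in 11 (16.2%, against 5.34%). At least 1 of the 3 was present in 38 promoters (55.9%, against 30.1%). Each match is a description of the sequence and not a tested binding site. The promoters of 4 genes are shown 5′ to 3′ on the strand of the gene, with matches in capitals. Ndufb5 and Ndufb7 are shown as the genes with the smallest p-values of the set, and Sdha as the gene behind the difference in complex II. Cox6a1 is shown as the complex IV gene of smallest p-value among those whose promoters hold a motif (edgeR unadjusted p = 0.461). Ndufb5 lies at chr3:32736813-32737112 on the plus strand and holds none of the 3 motifs. Ndufb7 lies at chr8:83566508-83566807 on the plus strand and holds the ETS letters. Sdha lies at chr13:74350191-74350490 on the minus strand and holds 3 matches to the NRF1 letters. Cox6a1 lies at chr5:115348909-115349208 on the minus strand and holds 2 matches to the NRF1 letters and 1 to the ETS letters on the other strand.
Ndufb5: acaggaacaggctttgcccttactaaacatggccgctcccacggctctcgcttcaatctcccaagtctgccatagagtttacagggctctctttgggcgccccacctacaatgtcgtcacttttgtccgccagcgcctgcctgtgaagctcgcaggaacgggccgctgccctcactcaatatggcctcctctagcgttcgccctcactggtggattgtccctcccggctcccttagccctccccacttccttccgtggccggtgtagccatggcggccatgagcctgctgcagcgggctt
Ndufb7: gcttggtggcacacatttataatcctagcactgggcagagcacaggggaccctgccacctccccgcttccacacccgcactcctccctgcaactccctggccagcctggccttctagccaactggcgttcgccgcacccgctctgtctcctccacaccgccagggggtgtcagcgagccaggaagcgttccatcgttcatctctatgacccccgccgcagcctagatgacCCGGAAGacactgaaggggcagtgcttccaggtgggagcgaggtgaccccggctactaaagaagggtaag
Sdha: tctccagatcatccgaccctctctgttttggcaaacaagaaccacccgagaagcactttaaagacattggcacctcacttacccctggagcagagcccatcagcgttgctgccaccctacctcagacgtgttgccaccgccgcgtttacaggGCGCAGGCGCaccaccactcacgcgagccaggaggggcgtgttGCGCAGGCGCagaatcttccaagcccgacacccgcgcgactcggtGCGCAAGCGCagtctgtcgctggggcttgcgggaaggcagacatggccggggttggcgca
Cox6a1: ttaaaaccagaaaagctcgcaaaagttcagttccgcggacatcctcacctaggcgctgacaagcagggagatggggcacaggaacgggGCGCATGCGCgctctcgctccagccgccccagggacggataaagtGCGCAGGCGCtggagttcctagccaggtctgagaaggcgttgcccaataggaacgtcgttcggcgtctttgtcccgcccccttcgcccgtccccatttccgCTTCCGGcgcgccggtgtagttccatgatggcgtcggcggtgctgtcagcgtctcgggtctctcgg

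The libraries held 5519748 to 7296424 gene counts in LAIR-1-deficient cells and 7974206 to 9187017 in wild type cells, so every LAIR-1-deficient library was the shallower. Lair1 itself had 2, 1 and 1 counts in LAIR-1-deficient libraries and 58, 32 and 43 in wild type libraries (log2 fold change -4.58, SE 0.57; edgeR adjusted p = 0.00255). Levels are given as CPM, that is, counts divided by TMM-scaled library sizes. A list of 10 genes for naive CD8 T cells summed to 7529 to 8143 CPM in LAIR-1-deficient libraries and 7665 to 8064 CPM in wild type libraries. It includes Ptprc, the gene of CD45, and also Cd44, although the gate took cells without CD44. Cd44 had 21.8, 14.8 and 11.2 CPM in LAIR-1-deficient mice and 12.0, 13.1 and 12.5 CPM in wild type mice. B cell markers summed to 25.3 to 32.6 CPM in LAIR-1-deficient and 30.0 to 32.8 CPM in wild type libraries, and erythroid markers to 26.9 to 141 CPM in LAIR-1-deficient and 34.3 to 168 CPM in wild type libraries. In the same order, NK markers summed to 316 to 395 and 339 to 391 CPM, with Klrd1 at means of 341 and 360 CPM. Macrophage and monocyte markers summed to 203 to 217 and 209 to 246 CPM. The sums were 1.96 to 4.37 and 1.09 to 4.26 CPM for CD4 T cells, and 7.50 to 11.3 and 10.1 to 17.4 CPM for dividing cells. Platelet markers did not overlap between the groups, at 1.07 to 2.73 CPM in LAIR-1-deficient and 3.03 to 5.93 CPM in wild type libraries, and none of these 4 genes had enough counts to be tested. For 8 immediate early genes the sum reached 9907 CPM in mouse 1 of the LAIR-1-deficient group and 8271 CPM in mouse 1 of the wild type group, against 3275 to 3775 CPM in the other 4 mice. Whether these markers bear on the values given here was not tested.

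Nuclear oxidative phosphorylation genes were at closely matched levels in LAIR-1-deficient and wild type naive CD8 T cells. Their summed level was 13270, 12068 and 12573 CPM in LAIR-1-deficient mice 1 to 3 and 12899, 13022 and 12050 CPM in wild type mice 1 to 3. The means, 12637 ± 604 and 12657 ± 529 CPM (SD, n = 3 each), differed by -0.16%, well inside the spread between libraries of a group. In sorted bulk RNA, fewer cells of a type and less RNA per cell cannot be told apart.

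Of the 81 genes, 77 had enough counts to be tested. None was called higher or lower in LAIR-1-deficient cells by edgeR's quasi-likelihood test at an adjusted p under 0.05, a threshold that 0.0105% of the 9565 genes tested passed, Lair1 alone. At an unadjusted p under 0.05 there were 2 of 77 (2.60%), Ndufb5 and Ndufb7, both in the positive direction, against 3.25% of all genes tested (1.81% higher and 1.44% lower). By the same unadjusted threshold DESeq2 and limma-voom each gave 2 (2.60%), against 2.27% and 3.16% of all genes tested. The count depended on single mice: without LAIR-1-deficient mouse 2 it was 4 (5.19%, against 3.26% of all genes), and without wild type mouse 3 it was 5 (6.49%, against 3.64%). Fold changes were positive for 36 genes and negative for 41, with a median log2 fold change of -0.02, against 0.0006 over all genes tested. Without LAIR-1-deficient mouse 1 that median was -0.07 with 32.5% of the genes positive, and without LAIR-1-deficient mouse 2 it was 0.03 with 64.9% positive, so its direction rests on single mice.

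The measurement was tighter for these genes than for all genes tested, but their levels were also higher. Their median log2 CPM was 6.73, against 4.32 over all genes tested and 5.08 over those averaging at least 10 CPM. Neither background was thus matched in level. The median SD of log2 CPM within a group was 0.107, against 0.195 over all genes tested and 0.160 over those averaging at least 10 CPM. For 75 of 77 genes (97.4%) the 95% interval stayed inside 1.5-fold in both directions, against 63.2% of all genes tested. Restricted to genes averaging at least 10 CPM, the shares were 98.7% of 76 members and 86.9% of all tested genes. Ndufa10 and Atp5s were the 2 genes whose interval reached beyond 1.5-fold.

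**Figure D1:**
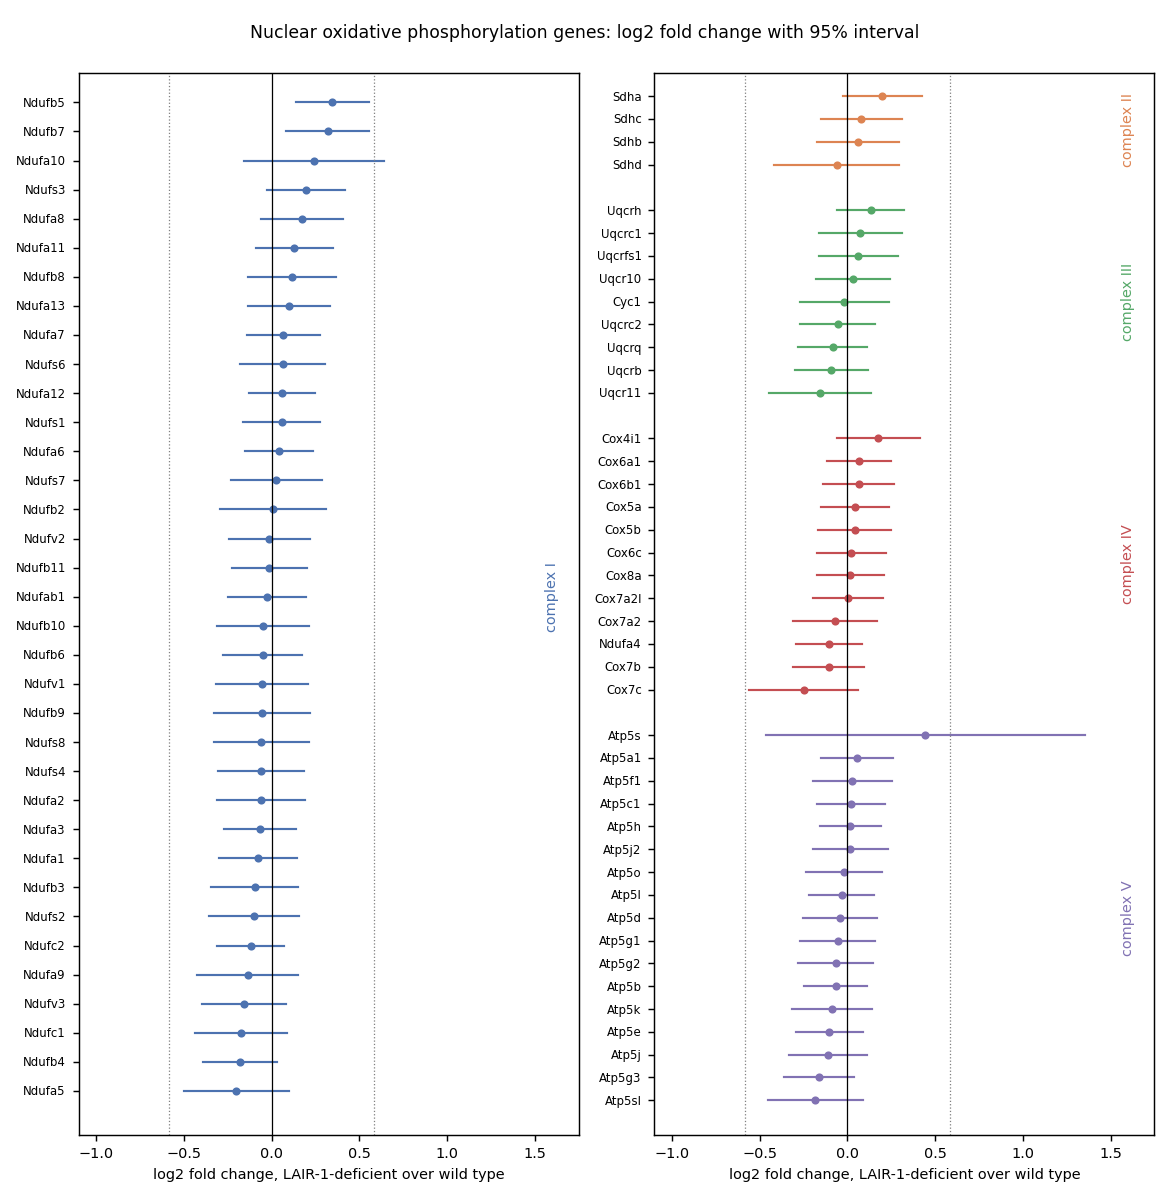
Log2 fold change of each of the 77 tested genes, LAIR-1-deficient over wild type, on the horizontal axis, with 1 gene per row, complex I on the left and complexes II to V on the right. Points are edgeR estimates, bars are 95% intervals and dotted lines mark 1.5-fold; the intervals of Ndufb5 and Ndufb7 lie above 0, and that of Atp5s is the widest.

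All libraries of a group lay above or below all libraries of the other for 7 of the 77 genes (9.09%), against 8.38% of all genes tested (4.30% higher and 4.09% lower). Ndufb5, Ndufb7 and Uqcrh had every LAIR-1-deficient library above every wild type library. Ndufb4, Ndufc2, Ndufa4 and Cox7b had every LAIR-1-deficient library below. This share is near the background of all genes.

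Complex I takes electrons from NADH through a peripheral arm and pumps protons through a membrane arm. Its nuclear genes summed to 3704, 3382 and 3625 CPM in LAIR-1-deficient mice and 3522, 3682 and 3408 CPM in wild type mice, and the groups overlapped. Of 35 tested genes, 15 lay above 0 and 20 below on the log2 fold change scale, and the median was -0.03. The 7 nuclear core subunits, which carry the flavin and iron-sulfur centres or sit next to them, had a median of -0.01, and the 28 tested accessory subunits one of -0.04.

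Ndufb5 encodes an accessory subunit of the membrane arm. It had 180, 157 and 169 CPM in LAIR-1-deficient mice and 122, 139 and 138 CPM in wild type mice. All 3 LAIR-1-deficient libraries lay above all 3 wild type libraries. The means were 169 ± 11.7 and 133 ± 9.17 CPM (SD, n = 3 each). On the log2 scale the fold change was 0.34 (95% interval 0.14 to 0.55; edgeR unadjusted p = 0.00272, adjusted p = 0.9999). Over 14 alternative analyses its log2 fold change was 0.24 to 0.39 and its adjusted p 0.563 to 1.00. Its exons, on chromosome 3 from 32736990 to 32751566 (GRCm38, GENCODE vM21), overlap 1 gene of the opposite strand, and the strand setting of the counting is not known, so its counts may include that gene's reads.

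Ndufb7 encodes another accessory subunit of the membrane arm. Its level was 71.8, 71.1 and 70.5 CPM in LAIR-1-deficient mice and 50.8, 57.7 and 62.5 CPM in wild type mice. The LAIR-1-deficient mice were nearly equal and all above wild type, and the wild type mice were the more spread. The log2 fold change was 0.32 (95% interval 0.08 to 0.56; edgeR unadjusted p = 0.0111, adjusted p = 0.9999). Without wild type mouse 1, the lowest, it was 0.24 with an unadjusted p of 0.0589, and over the 14 alternatives the adjusted p was 0.802 to 1.00.

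Ndufs3, a core subunit of the peripheral arm, had 135, 155 and 129 CPM in LAIR-1-deficient mice and 110, 126 and 129 CPM in wild type mice. The groups overlapped, and the log2 fold change was 0.19 (95% interval -0.03 to 0.42; edgeR unadjusted p = 0.0825). Ndufa12, an accessory subunit of the peripheral arm, had 302, 319 and 339 CPM in LAIR-1-deficient mice and 295, 319 and 306 CPM in wild type mice, with a log2 fold change of 0.06. Both have a near-identical pseudogene.

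The remaining complex I genes that did not overlap lay lower in LAIR-1-deficient cells. Ndufb4, of the membrane arm, had 81.4, 93.2 and 90.5 CPM in LAIR-1-deficient mice and 97.5, 103 and 99.6 CPM in wild type mice (log2 fold change -0.18). It has 2 near-identical pseudogenes, which make its count uncertain. Ndufc2, also of the membrane arm, had 243, 223 and 242 CPM in LAIR-1-deficient mice and 251, 272 and 246 CPM in wild type mice (log2 fold change -0.12). Accessory genes of the same arm thus lay on either side of 0. Ndufa10, named after its values were seen, had 74.8 CPM in LAIR-1-deficient mouse 1, against 46.8 and 41.2 CPM in mice 2 and 3 of that genotype and 44.1, 47.2 and 46.4 CPM in wild type mice. A single library was high there.

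Complex II, succinate dehydrogenase, links the citric acid cycle to the respiratory chain. Its 4 genes summed to 325, 322 and 341 CPM in LAIR-1-deficient mice and 277, 301 and 319 CPM in wild type mice, and it was the single complex whose summed level did not overlap between the groups. The means were 329 ± 10.1 and 299 ± 21.1 CPM (SD, n = 3 each), a difference of 9.94%, which was 6.06% without wild type mouse 1 and 13.8% without wild type mouse 3. The gap between the nearest mice of the groups was small beside the spread within wild type.

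Most of the complex II difference was in Sdha, the flavoprotein that oxidises succinate. Sdha had 185, 184 and 190 CPM in LAIR-1-deficient mice and 139, 162 and 187 CPM in wild type mice. Wild type mouse 3 lay among the LAIR-1-deficient mice, so the groups overlapped. The means were 186 ± 3.38 and 162 ± 24.0 CPM (SD, n = 3 each). The log2 fold change was 0.20 (95% interval -0.03 to 0.43; edgeR unadjusted p = 0.0789, adjusted p = 0.9999), and it was 0.10 without wild type mouse 1 and 0.31 without wild type mouse 3 (unadjusted p = 0.368 and 0.0113). Log2 fold changes were 0.06 for Sdhb, the iron-sulfur subunit, 0.08 for Sdhc and -0.06 for Sdhd, the membrane anchors, each with overlapping groups and an interval that includes 0.

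**Figure D2:**
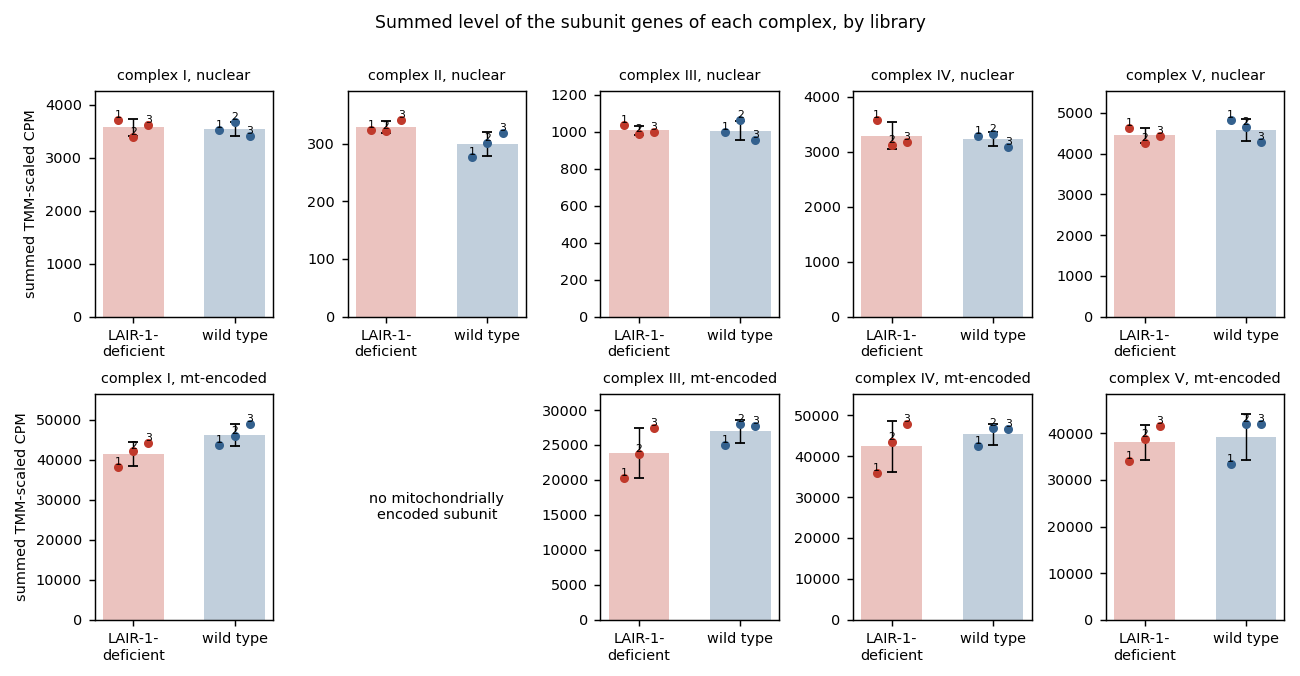
Summed TMM-scaled CPM of the genes of each complex, nuclear in the upper row and mitochondrially encoded in the lower row, with LAIR-1-deficient libraries in red at the left and wild type libraries in blue at the right of each panel. Bars are means of 3 mice, error bars SD and numbered points single mice; complex II separates the groups by a narrow gap, from 322 to 341 CPM against 277 to 319 CPM, and the other nuclear sums overlap.

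Complex III, the cytochrome bc1 complex, hands electrons from ubiquinol to cytochrome c. Its 9 genes summed to 1035, 988 and 998 CPM in LAIR-1-deficient mice and 999, 1061 and 957 CPM in wild type mice, with overlapping groups and 4 positive and 5 negative fold changes. The redox subunits Cyc1, cytochrome c1, and Uqcrfs1, the Rieske iron-sulfur protein, had log2 fold changes of -0.02 and 0.06. The core proteins Uqcrc1 and Uqcrc2 had 0.07 and -0.05.

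Uqcrh, the hinge protein that contacts cytochrome c1, had 230, 238 and 217 CPM in LAIR-1-deficient mice and 200, 215 and 209 CPM in wild type mice. The groups did not overlap, but LAIR-1-deficient mouse 3 and wild type mouse 2 were close. The log2 fold change was 0.13 (95% interval -0.06 to 0.32; edgeR unadjusted p = 0.157). The other small subunits Uqcr11, Uqcrb and Uqcrq had log2 fold changes of -0.16, -0.09 and -0.08 with overlapping groups, and Uqcr11 and Uqcrb have near-identical pseudogenes.

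Complex IV, cytochrome c oxidase, reduces oxygen. The nuclear genes counted for it include Cox7a2l, which encodes another protein. These genes summed to 3567, 3118 and 3171 CPM in LAIR-1-deficient mice and 3283, 3325 and 3080 CPM in wild type mice. LAIR-1-deficient mouse 1 was the highest, and the groups overlapped. Of 12 tested genes, 8 lay above 0 and 4 below, and the median log2 fold change was 0.02. Without LAIR-1-deficient mouse 1 the median was -0.04.

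Cox4i1, the common isoform of the regulatory subunit 4, had 517, 375 and 382 CPM in LAIR-1-deficient mice and 378, 385 and 364 CPM in wild type mice. LAIR-1-deficient mouse 1 alone was high, and the other 2 lay among the wild type mice. The log2 fold change was 0.18 (95% interval -0.06 to 0.41; edgeR unadjusted p = 0.134), and without that mouse it was 0.005. Mouse 1 of each group had the high immediate early sum given above, 9907 CPM in LAIR-1-deficient and 8271 CPM in wild type. Cox4i1 was at 378 CPM in that wild type mouse. The part of the immediate early genes in the Cox4i1 values was not tested.

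Cox7c, a small subunit, had 20.5, 24.4 and 19.1 CPM in LAIR-1-deficient mice and 26.1, 26.5 and 23.2 CPM in wild type mice. LAIR-1-deficient mouse 2 lay above wild type mouse 3, so the groups overlapped. The log2 fold change was -0.25 (95% interval -0.56 to 0.06; edgeR unadjusted p = 0.106), and 4 near-identical pseudogenes make its count uncertain.

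Ndufa4 had 327, 330 and 316 CPM in LAIR-1-deficient mice and 332, 376 and 337 CPM in wild type mice. No LAIR-1-deficient mouse reached the lowest wild type mouse, and the log2 fold change was -0.10. Cox7b had 124, 113 and 121 CPM in LAIR-1-deficient mice and 125, 136 and 124 CPM in wild type mice (log2 fold change -0.11). Its 2 near-identical pseudogenes make that count uncertain. Cox5a, named after its values were seen, had the lowest coefficient of variation of the 77 genes in LAIR-1-deficient mice, 0.213%. Its level was 164 CPM in each of them and 158, 164 and 155 CPM in wild type mice.

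**Figure D3:**
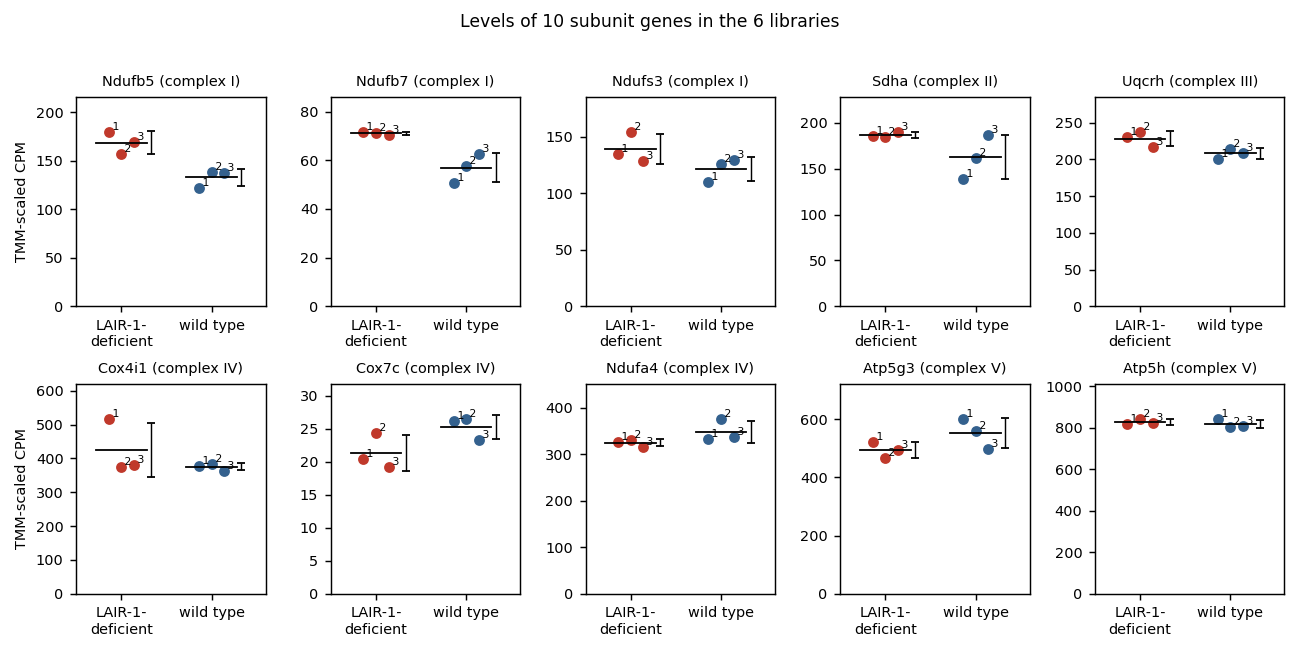
TMM-scaled CPM of 10 genes from the 5 complexes, with LAIR-1-deficient mice in red at the left and wild type mice in blue at the right, numbered by mouse, a line at each mean and a bracket of 1 SD on either side (n = 3). Ndufb5 and Ndufb7 do not overlap between the groups, Cox4i1 is high in LAIR-1-deficient mouse 1 alone, and Atp5h is level in all 6 libraries.

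Several complex IV subunits have a common isoform and one restricted to particular tissues. The common isoforms were present: Cox6a1 had a log2 fold change of 0.07, Cox6b1 of 0.06, Cox7a2 of -0.07 and Cox8a of 0.02, and none had an interval that left out 0. Without LAIR-1-deficient mouse 1 the values were below 0 for Cox6b1 and Cox8a, at -0.005 and -0.07. Cox6a2 and Cox7a1, the heart and skeletal muscle isoforms, and Cox6b2, the testis isoform, had too few counts to be tested. Cox6a2 had 1, 0 and 2 counts in LAIR-1-deficient libraries and 11, 0 and 9 in wild type libraries. Cox6b2 had 2, 5 and 1 counts in LAIR-1-deficient libraries and 11, 3 and 1 in wild type libraries. Cox7a1 had 1, 0 and 0 counts in LAIR-1-deficient libraries and 0, 0 and 4 in wild type libraries. A difference in the rare isoforms was not detectable at this depth.

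Cox7a2l, which joins complexes III and IV into supercomplexes, had a log2 fold change of 0.01. The fourth gene below the filter was Ndufs5, an accessory subunit of complex I, with 0, 0 and 0 counts in LAIR-1-deficient libraries and 0, 4 and 0 in wild type libraries. Ndufs5 has an annotated pseudogene, BC002163, that shares 99.4% of 319 aligned bases, and the way reads with more than 1 match were counted is not known, so its level here is uncertain.

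Complex V, the ATP synthase, has a catalytic F1 head, a rotating ring of c subunits and a peripheral stalk. The 17 genes counted for it include Atp5s and Atp5sl, which encode other proteins. These 17 summed to 4639, 4257 and 4438 CPM in LAIR-1-deficient mice and 4817, 4653 and 4285 CPM in wild type mice. The groups overlapped, with 6 positive and 11 negative fold changes and a median log2 fold change of -0.04. The 5 F1 genes, Atp5a1 to Atp5e, ran from -0.10 (Atp5e, the epsilon subunit) to 0.05 (Atp5a1, the alpha subunit).

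The 3 c ring genes, Atp5g1, Atp5g2 and Atp5g3, encode the same mature protein behind different mitochondrial import sequences. Atp5g3 had 523, 466 and 493 CPM in LAIR-1-deficient mice and 602, 560 and 497 CPM in wild type mice. LAIR-1-deficient mouse 1 lay above wild type mouse 3, so the groups overlapped. The log2 fold change was -0.16 (95% interval -0.36 to 0.04; edgeR unadjusted p = 0.101), and it was -0.10 without wild type mouse 1 and -0.23 without wild type mouse 3. Atp5g1 and Atp5g2 had -0.06 and -0.07, and both were above 0, at 0.03 and 0.01, without LAIR-1-deficient mouse 2. Atp5g1 made up 11.4% ± 0.44 of the counts of the 3 genes in LAIR-1-deficient cells and 11.1% ± 0.42 in wild type cells (SD, n = 3 each). The share of Atp5g2 was 50.3% ± 1.34 in LAIR-1-deficient and 49.1% ± 0.22 in wild type cells, and that of Atp5g3 38.3% ± 1.41 in LAIR-1-deficient and 39.8% ± 0.38 in wild type cells. The mix of the 3 genes differed by about as much as the mice did. Atp5g1 has a near-identical pseudogene and the exons of Atp5g2 overlap a gene of the same strand, so these shares are uncertain.

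Atp5h, subunit d of the peripheral stalk, had 817, 842 and 820 CPM in LAIR-1-deficient mice and 840, 805 and 805 CPM in wild type mice. It was level across all 6 mice, with a log2 fold change of 0.02 (95% interval -0.16 to 0.19), though 4 near-identical pseudogenes exist. Atp5sl, now known as Dmac2 and an assembly protein of the complex I membrane arm, had a log2 fold change of -0.18 with an interval that includes 0. Atp5s, at 1.5 to 4.27 CPM in LAIR-1-deficient and 1.79 to 2.30 CPM in wild type mice, was too low for a narrow estimate.

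Differences between libraries of the same genotype were alike in complexes I, III and IV. There the LAIR-1-deficient sums were highest in mouse 1 and lowest in mouse 2. The wild type sums were highest in mouse 2 and lowest in mouse 3. Complex II differed, with LAIR-1-deficient mouse 3 highest at 341 CPM and wild type mouse 3 highest at 319 CPM. In complex V the highest wild type sum was that of mouse 1, at 4817 CPM. LAIR-1-deficient mouse 1 was the highest library for 25 of the 77 tested genes and wild type mouse 2 for 20, against 2 for wild type mouse 3. LAIR-1-deficient mouse 2 was the lowest library for 30 genes and wild type mouse 3 for 22. Each genotype thus held a high mouse and a low mouse for many of these genes. The same counts over all genes tested were not taken. The high mice had 7039990 counts (LAIR-1-deficient mouse 1) and 9187017 counts (wild type mouse 2), and the low mice had 5519748 counts (LAIR-1-deficient mouse 2) and 8939919 counts (wild type mouse 3).

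**Figure D4:**
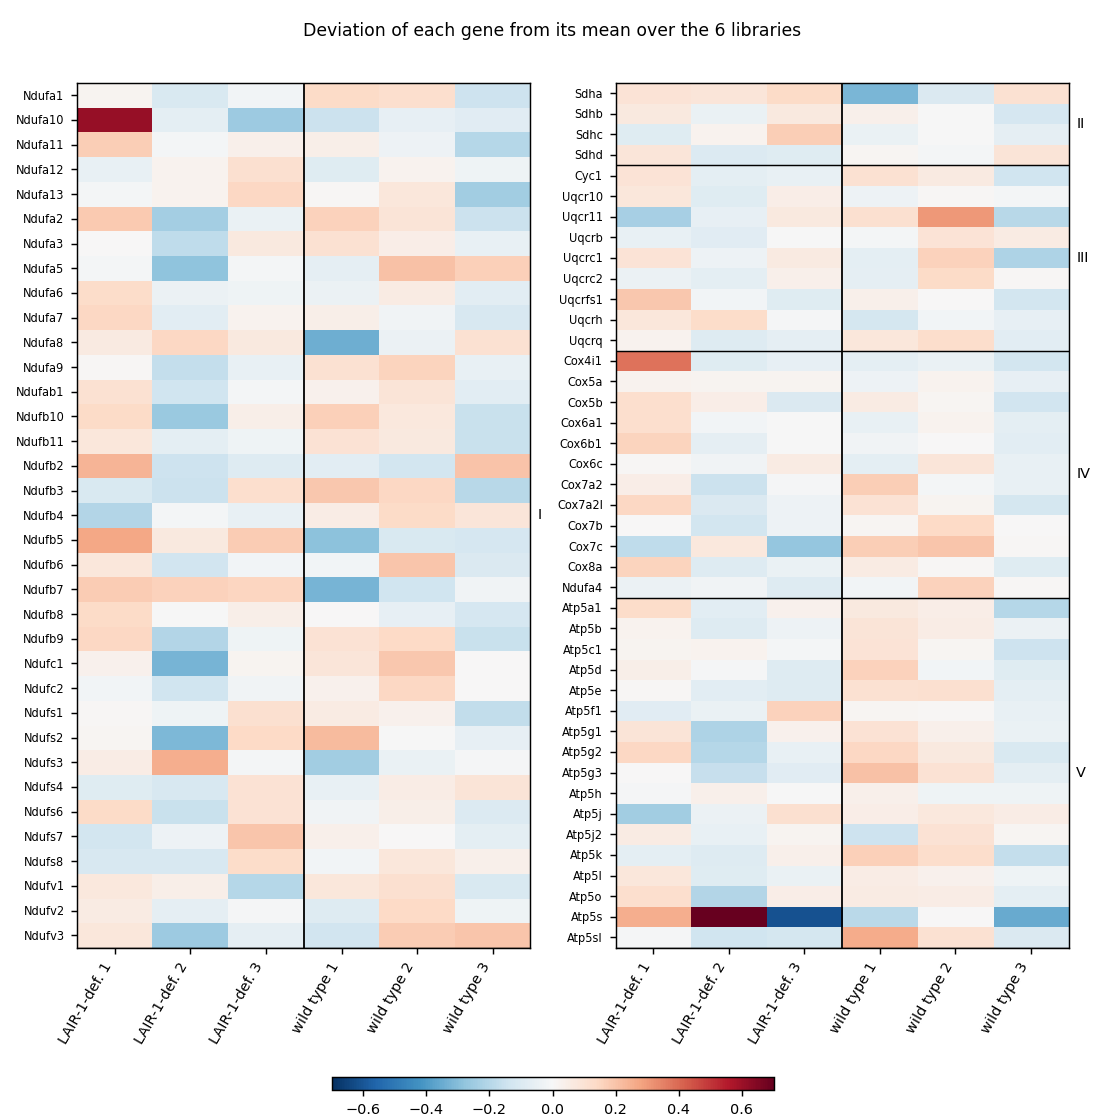
Deviation of log2 CPM from the mean of each gene over the 6 libraries, with 77 genes in rows by complex and LAIR-1-deficient mice left of wild type mice; red is above and blue below the mean, and colours end at the limits of the scale. LAIR-1-deficient mouse 2 and wild type mouse 3 are blue for many genes, at a median deviation of -0.07 each, and Ndufa10 and Cox4i1 are red in LAIR-1-deficient mouse 1.

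The counts of many of these genes are uncertain. An annotated pseudogene with at least 95% identity over at least 100 bases exists for 21 of the 81 genes, with 9 for Atp5l. Exons of 29 genes overlap another gene, and 41 of the 81 genes (50.6%) have such a pseudogene, such an overlap or both. The median log2 fold change was -0.02 for tested genes with such a pseudogene and -0.01 for those without.

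Assembly factors build the complexes without being part of them. Of 50 such genes in the table, 49 were tested, none was called, and none had an edgeR unadjusted p under 0.05. Fold changes were positive for 25 and negative for 24, and the summed level was 1393 ± 4.60 CPM in LAIR-1-deficient and 1386 ± 30.3 CPM in wild type cells (SD, n = 3 each). Ndufaf5, which modifies the core subunit Ndufs7, had 6.20, 7.47 and 7.52 CPM in LAIR-1-deficient mice and 9.08, 8.97 and 10.4 CPM in wild type mice. Its groups did not overlap, with a log2 fold change of -0.43 (edgeR unadjusted p = 0.058). Sco1, a copper chaperone for complex IV, had 10.2, 16.9 and 9.84 CPM in LAIR-1-deficient mice and 9.96, 9.30 and 7.29 CPM in wild type mice, so a single mouse was high (log2 fold change 0.46, without LAIR-1-deficient mouse 2 0.18).

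A list of nuclear regulators of mitochondrial genes held 15 tested genes, among them Cycs, the gene of cytochrome c itself. None was called and 3 had an edgeR unadjusted p under 0.05 (20%, against 3.25% of all genes tested), with adjusted p of 0.9999 each. The list was chosen with earlier results of these data known. Tfam, which packages and transcribes mitochondrial DNA, had 44.1, 48.4 and 51.8 CPM in LAIR-1-deficient mice and 53.1, 63.9 and 57.0 CPM in wild type mice. Its groups did not overlap, with a log2 fold change of -0.27 (95% interval -0.52 to -0.02; edgeR unadjusted p = 0.0384). Nrf1, a transcription factor of respiratory genes, had 34.3, 33.3 and 33.2 CPM in LAIR-1-deficient mice and 29.1, 27.9 and 25.9 CPM in wild type mice. All LAIR-1-deficient mice lay above all wild type mice, with a log2 fold change of 0.28 (95% interval 0.02 to 0.55; edgeR unadjusted p = 0.0391). Over the 14 alternatives the unadjusted p was 0.0234 to 0.186 for Tfam and 0.0348 to 0.119 for Nrf1. The third was Pprc1, a coactivator of the PGC family, at 0.32 (edgeR unadjusted p = 0.0497), named after its values were seen. The coactivator gene Ppargc1a had 0, 0 and 2 counts in LAIR-1-deficient libraries and 0, 3 and 1 in wild type libraries and was not tested.

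The nuclear genes whose promoters hold at least 1 of the 3 motifs had fold changes close to those of the rest. The median log2 fold change was -0.01 over 37 tested genes with a motif and -0.02 over 28 without. The genes of the printed promoters were chosen by their p-values or by the complex II difference, so their directions do not bear on the motifs.

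The 13 mitochondrially encoded subunits join the nuclear ones in complexes I, III, IV and V. None of the 13 was called, against 0.0105% of all genes tested. These 13 had 12 negative fold changes, against 4763 of the 9565 genes tested, and a median log2 fold change of -0.13. All 13 lie on 1 chromosome, which held 15.6% to 21.1% of the counts of a library. Their directions were thus not taken as separate observations. Their summed level was 128377, 147969 and 161087 CPM in LAIR-1-deficient mice and 144352, 163129 and 165653 CPM in wild type mice, with overlapping groups. For mtNd2, a core membrane subunit of complex I, the level was 9402, 9181 and 10286 CPM in LAIR-1-deficient mice and 11653, 11135 and 12222 CPM in wild type mice. It was the 1 gene of the 13 whose groups did not overlap (7.69%, against 8.38% of all genes tested). Its log2 fold change was -0.28 (edgeR unadjusted p = 0.00243, adjusted p = 0.9999). The summed level of the 81 nuclear genes, the 3 that are not subunits included, was 10.3%, 8.16% and 7.81% of that of the mitochondrially encoded subunits in LAIR-1-deficient mice and 8.94%, 7.98% and 7.27% in wild type mice. The groups overlapped in this ratio, and in each genotype mouse 1 had the highest value. In complex II, which has no mitochondrially encoded subunit, no such ratio exists.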

How the data were processed

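The authors deposited a table of raw counts, whole numbers by gene and library, as its header and values show. BWA and mm10 are named in the submitters' processing notes. How reads were counted, with which annotation, strand setting or molecular identifiers, is not given in the sources used here. All 6 libraries were used, and 4 spike-in rows with at most 2 counts were left out. Libraries held 5519748 to 9187017 counts, and counting precision is included in the fitted intervals.

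Genes were filtered with filterByExpr (smallest count 10), scaled by TMM and compared, LAIR-1-deficient over wild type, with edgeR 4.0.16 in R 4.3.3 (robust quasi-likelihood F test, two-sided, no covariate). Adjusted p-values are Benjamini-Hochberg values over 9565 genes. CPM are TMM-scaled. The procedure was tested on simulated data. Alternatives were RLE and total scaling, no filter and a smallest count of 30, DESeq2 1.42.0, limma-voom (limma 3.58.1), a mouse-number block, leaving out each library, leaving out mouse 1 of both groups, and annotated subunits only.

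Gene positions are from GENCODE vM21 (GRCm38), promoters from RefSeq, and pseudogene matches from blastn 2.17.0. The genes named were any called, the 3 with the smallest p and the one with the highest mean CPM per complex, the isoform families, those below the filter, the Sdh genes, the 2 regulators and 2 assembly factors of smallest p, and Lair1; genes outside this rule are named as non-overlapping or as chosen after their values were seen. The members, lists and named-gene rule were chosen with earlier results of these data known.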

Additional observations from a re-analysis of the deposited data

How the results depend on the processing

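No member was called under any of the 14 alternative fits, and the members' median log2 fold change stayed between -0.07 and 0.03. Over all genes, calls higher in LAIR-1-deficient cells were 1 with no filter, and 0 to 1 when single libraries were left out. Calls lower were 2 with no filter, 0 with a smallest count of 30, 0 by limma-voom, 0 without mouse 1 of both groups, and 0 to 2 when single libraries were left out. Lair1 had adjusted p of 0.142 by limma-voom, 0.0592 without wild type mouse 1 and 0.0712 without mouse 1 of both groups.

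Some named genes near 0 changed sign. Leaving out single libraries gave log2 fold changes of -0.0661 to 0.0659 for Cox8a, -0.00520 to 0.109 for Cox6b1, -0.0724 to 0.0576 for Cox7a2l, -0.122 to 0.0289 for Atp5g1 and -0.166 to 0.0122 for Atp5g2. Without mouse 1 of both groups Cox8a was -0.0337, Cox6b1 -0.000883 and Cox7a2l -0.0204. The cause was not tested.

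Both groups carry mouse numbers 1 to 3. Deviations of same-numbered mice correlated at 0.29, 0.01 and 0.07, and LAIR-1-deficient mice 2 and 3 correlated best with wild type mice 3 and 2, so the numbers were not taken as pairs. With mouse number as a replicate block, 0 members and 1 gene in all, lower, were called by edgeR. In that fit 3 members had an unadjusted p under 0.05 (3.90%, against 4.68% of all genes tested). The smallest edgeR adjusted p of a member was 0.658. The members' median log2 fold change was -0.02 and 45.5% of them were positive. With 3 mice a group and a common biological variation of 0.135, differences narrower than the printed intervals could not be resolved.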
